A study of Arabidopsis thaliana with 2 samples.

Results

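The MBD9 summits that lay inside a nuclear tRNA gene, or within 100 bp of either of its ends, numbered 231 of the 13993 summits in the deposited list (1.65%, 95% Wilson interval 1.45 to 1.88). A summit is a single base marked as a high point of a called peak, and 1 peak can hold several summits. The score of a summit is -log10 of the q value at that base. The tRNA genes were the 625 genes annotated as tRNA on the 5 nuclear chromosomes of the RefSeq copy of TAIR10.1. MBD9 is a plant protein with a methyl-CpG-binding domain, and the experiment mapped where it occurs on chromatin. Anti-FLAG ChIP-seq was done on 13-day-old Arabidopsis seedlings (Col-0) that expressed MBD9-3xFLAG from its own promoter in the mbd9-3 mutant, a transgenic line in the T4 generation, against untagged wild-type Col-0 plants of the same age. Each genotype had 1 library and the tagged line was 1 transgenic line, so every value below describes 1 list of calls without a replicate check. The Wilson intervals cover counting error only, and no test was run between groups of genes. Read coverage was not used here and depth is unknown.

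Transfer RNA genes are transcribed by RNA polymerase III from a promoter that lies within the gene itself. Its elements, the A box near the 5' end and the B box near the 3' end, are bound by the factor TFIIIC, which brings TFIIIB to the region just upstream, and transcription ends at a run of T residues just past the gene. In plants a CAA motif close to the 5' end is thought to mark the start site. Arabidopsis carries many identical copies of most tRNA genes, scattered singly between protein-coding genes, and also long tandem arrays of tRNA-Pro and of alternating tRNA-Ser and tRNA-Tyr genes on chromosome 1.

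The sequences below show tRNA genes of 4 amino acids with a summit and, for 3 of them, genes without one that lie in tandem arrays. Each runs 5' to 3' on the strand of the gene, from RefSeq TAIR10.1, with 20 bp of flank on either side. Capitals mark the A box and the B box where a pattern search found them. The tRNA-Ser genes have capitals at the B box only, because the A box pattern was not matched in them.
AT5G16375 tRNA-Ser, single gene, summit score 69.5: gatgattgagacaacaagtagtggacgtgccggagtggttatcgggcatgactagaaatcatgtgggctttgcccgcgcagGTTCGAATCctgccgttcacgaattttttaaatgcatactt
AT1G15650 tRNA-Ser, single gene, summit score 41.4: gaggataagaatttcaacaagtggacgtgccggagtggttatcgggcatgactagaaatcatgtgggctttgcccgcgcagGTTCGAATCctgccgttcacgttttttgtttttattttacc
AT1G72780 tRNA-Ser, single gene, summit score 16.7: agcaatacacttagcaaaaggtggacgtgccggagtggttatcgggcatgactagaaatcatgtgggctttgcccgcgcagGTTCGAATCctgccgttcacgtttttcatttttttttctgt
AT1G56760 tRNA-Ser, in the largest array, no summit: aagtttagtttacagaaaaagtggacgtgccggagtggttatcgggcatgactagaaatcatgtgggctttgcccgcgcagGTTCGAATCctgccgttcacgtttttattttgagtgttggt
AT1G11010 tRNA-Met, single gene, summit score 51.9: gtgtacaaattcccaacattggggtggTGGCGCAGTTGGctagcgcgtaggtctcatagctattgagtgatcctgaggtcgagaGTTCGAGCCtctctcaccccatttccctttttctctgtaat
AT2G15950 tRNA-Tyr, single gene, summit score 28.4: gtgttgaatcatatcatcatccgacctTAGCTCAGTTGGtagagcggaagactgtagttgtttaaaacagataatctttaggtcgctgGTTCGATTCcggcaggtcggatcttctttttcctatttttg
AT1G56740 tRNA-Tyr, in the largest array, no summit: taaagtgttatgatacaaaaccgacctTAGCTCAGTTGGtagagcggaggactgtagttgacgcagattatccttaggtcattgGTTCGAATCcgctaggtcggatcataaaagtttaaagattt
AT3G27845 tRNA-Pro, single gene, summit score 18.3: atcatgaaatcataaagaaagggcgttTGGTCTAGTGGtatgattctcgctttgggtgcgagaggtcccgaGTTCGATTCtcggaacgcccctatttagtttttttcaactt
AT1G28740 tRNA-Pro, in a tandem array, no summit: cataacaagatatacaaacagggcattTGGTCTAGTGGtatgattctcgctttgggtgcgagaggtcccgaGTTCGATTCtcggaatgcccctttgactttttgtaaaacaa
The printed stretches are 5:5358896-5359017, 1:5380887-5381008 and 1:27393365-27393486 for the single tRNA-Ser genes and 1:21270276-21270397 for the tRNA-Ser gene of the array. They are 1:3676587-3676711 for the tRNA-Met gene, 2:6946771-6946899 and 1:21269102-21269226 for the tRNA-Tyr genes, and 3:10324619-10324730 and 1:10090348-10090459 for the tRNA-Pro genes. AT2G15950 lies on the minus strand and the others on the plus strand. The 4 tRNA-Ser genes have the same sequence between their ends and differ in their flanks. The printed tRNA-Tyr genes differ from each other within the gene, and so do the printed tRNA-Pro genes.

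A summit was found at 233 of the 625 tRNA genes (37.3%, 33.6 to 41.1). By the same rule, 15.3% of all 37899 nuclear genes had a summit. The median length was 73 bp for tRNA genes and 1796 bp for all genes. Around the 5' ends of the 27444 protein-coding genes, in stretches as wide as the median tRNA gene with its flanks, 9.12% of genes had a summit. The tRNA genes with their flanks cover 171433 bases, or 0.144% of the nuclear chromosomes, and held 11.5 times as large a share of the summits. Every tRNA gene with a summit had exactly 1, and 2 summits lay within reach of more than 1 tRNA gene. The share was 17.7% for protein-coding genes and 15.5% for lncRNA genes.

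The scores of the tRNA summits were of middling height. Their median was 10.4 (quartiles 7.16 and 15.9, range 2.33 to 69.5), against 10.1 for all summits (quartiles 5.41 and 20.8, range 2.0 to 197). The upper part of the distribution was thinner: 37 tRNA summits (16.0%) were as high as the top 25% of all summits. For summits at the 5' ends of protein-coding genes the median was 9.98, with quartiles of 5.63 and 19.4. Most tRNA summits were isolated. Of the 231, 198 (85.7%) were the only summit of their peak, against 7929 of all 13993 summits (56.7%). The other 33 shared a peak with further summits, and 14 of them were the strongest summit of that peak.

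Summits were concentrated on the transcribed part of the tRNA gene. Inside the gene lay 166 of the 231 (71.9%, 65.7 to 77.3), with 35 in the 100 bp before the 5' end (15.2%) and 30 in the 100 bp past the 3' end (13.0%). Per kb of sequence this came to 3.50 summits in the genes, 0.560 in the 5' flanks and 0.480 in the 3' flanks. The median summit lay 35.0 bp from the first base of the gene (quartiles 13.5 and 51.5), close to the middle of a gene with a median length of 73 bp. Within 20 bp of the middle of the gene were 121 summits (52.4%), and 185 (80.1%) were within 50 bp. The median score was 9.93 inside the gene, 9.94 in the 5' flank and 11.9 in the 3' flank.

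The fall-off on either side was steep. At the 475 tRNA genes that had no other tRNA gene within 1 kb (single genes), 4 equal stretches of the gene from 5' to 3' held 3.60, 6.64, 6.08 and 2.03 summits per kb. The 2 stretches in the middle, between the usual places of the A box and the B box, were thus the densest. Placement relative to the 2 boxes is only approximate. Reads were extended to 200 bp, only reads that mapped to 1 place were kept, and 186 of the 225 single genes with a summit had identical copies. The density was 0.716 per kb in the 5' flank to 100 bp and 0.126 per kb from 101 to 200 bp, where the average of the nuclear chromosomes was 0.117. On the 3' side it was 0.589 per kb to 100 bp and 0.0632 per kb from 101 to 200 bp. The 100 bp limit therefore lay where summits were rare: the farthest member was 96 bp from its gene and the nearest summit beyond the limit was at 104 bp.

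**Figure D1:**
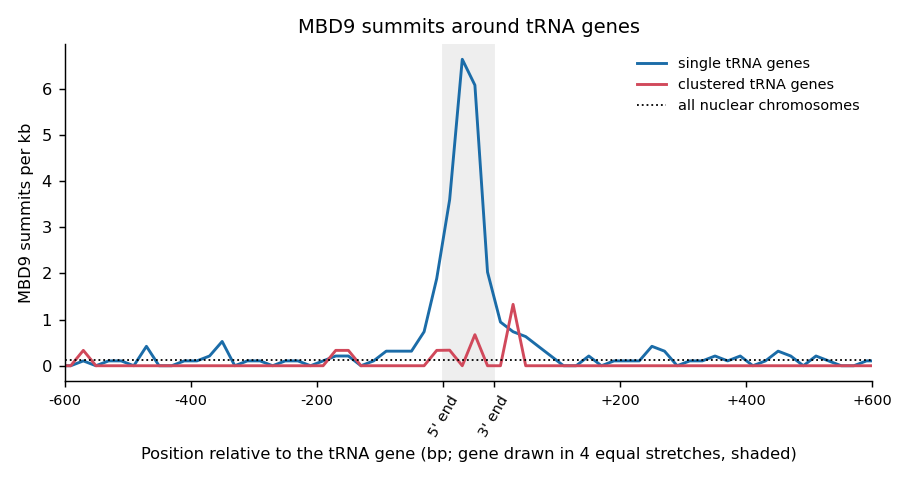
MBD9 summits per kb (y axis) by position along and around tRNA genes (x axis, bp from either end; the shaded gene is drawn as 4 equal stretches), for 475 single and 150 clustered tRNA genes, with the average of the nuclear chromosomes as a dotted line. Density at single genes peaks at 6.64 per kb in the second stretch of the gene and is near the 0.117 per kb average beyond 100 bp, whereas the clustered genes show only a few summits.

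Genes in tandem arrays of tRNA genes lacked summits, and single genes often had them. A summit was found at 225 of 475 single genes (47.4%, 42.9 to 51.9) and at 8 of 150 clustered genes (5.33%, 2.73 to 10.2), those with another tRNA gene at most 1 kb away. All 8 belonged to pairs of tRNA genes, of which 8 of 18 genes had a summit (44.4%, 24.6 to 66.3). In 10 clusters of 3 or more genes, none of the 132 genes had one (0%, upper bound 2.83), and no summit of any kind lay between the outer ends of these clusters. At AT1G17660 and AT1G17670, a tRNA-Asp and tRNA-Val pair on chromosome 1, a single summit lay within reach of both genes, and the same was true of the tRNA-Asp and tRNA-Val pair AT3G59923 and AT3G59926 on chromosome 3.

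The largest cluster held 81 genes, 54 for tRNA-Tyr and 27 for tRNA-Ser, at 1:21268787-21308471. Its nearest summit was 26938 bp away. Uniqueness of the sequence was low here, and the authors kept only reads that mapped to 1 place. Of the 50-base words in a gene with its 100 bp flanks, the median share that occurs once in the nuclear genome was 0% over the 81 genes, and 68 of them had no unique word. The tRNA-Pro arrays were different in this respect. The 39 tRNA-Pro genes in clusters of 3 or more had a median of 82.1% unique words, against 86.7% at single genes, and none had a summit. They lay in arrays of 11, 6, 5, 4 and 3 genes on chromosome 1 and of 9 genes on chromosome 2 (2:14350386-14356592), and 1 lay in a mixed cluster of 6 genes on chromosome 2 (2:3494382-3497440). The array of 9 genes was 13515 bp from its nearest summit. For the tRNA-Pro arrays of 11 and of 6 genes on chromosome 1 this distance was 782 and 3244 bp. A mixed cluster of tRNA-Glu, tRNA-Ser and tRNA-Tyr genes on chromosome 2 (2:3303244-3303822) also had none, with a median of 32.6% unique words. Both mixed clusters lay in a stretch of chromosome 2 (2:3255832-3503608) where no tRNA gene, single or clustered, had a summit. The tRNA genes of this stretch were kept in the counts of single and clustered genes given here. The mixed cluster of 6 genes was 508602 bp from its nearest summit and the other mixed cluster 319488 bp. An array of 4 tRNA-Cys genes on chromosome 5 (5:7073530-7074843), with a median of 89.2% unique words, lacked summits as well. Among genes with at least 70% unique words, a limit chosen after the data were seen, 225 of 473 single genes (47.6%) and 0 of 45 genes in clusters of 3 or more (upper bound 7.87%) had a summit. The part of read mapping in the absence of summits from the largest cluster was not tested.

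Identical copies of a tRNA gene differed in whether they had a summit. The 625 genes had 226 distinct sequences, of which 101 occurred in 2 or more identical genes. Of these 101, 58 had copies both with and without a summit, 32 had none and 11 had a summit at every copy. The tRNA-Ser gene with anticodon AGA printed above occurred 20 times. All 7 single copies had a summit, with scores of 16.7, 30.6, 31.2, 33.5, 40.1, 41.4 and 69.5, and none of the 13 copies in the largest cluster had one. The scores of the 7 were thus all above the median of the tRNA summits. The most frequent sequence, a tRNA-Pro gene with anticodon TGG, occurred 34 times, 30 of them in arrays and 4 elsewhere, and had no summit at any copy.

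Away from the arrays, identical copies were usually split. A summit was found at 14 of 21 copies of the tRNA-Asp gene, at 7 of 15 copies of a tRNA-Lys gene with anticodon CTT and at 7 of 15 copies of the tRNA-Phe gene. Of the tRNA-Leu genes with anticodon AAG, 8 of 10 identical copies had one, whereas 1 of 9 identical tRNA-Glu genes with anticodon CTC did. The tRNA-Gly genes ranged from 3 of 14 copies with anticodon GCC to 8 of 12 with anticodon TCC. Copies with the same internal promoter sequence were thus found both with and without a summit in these groups.

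**Figure D2:**
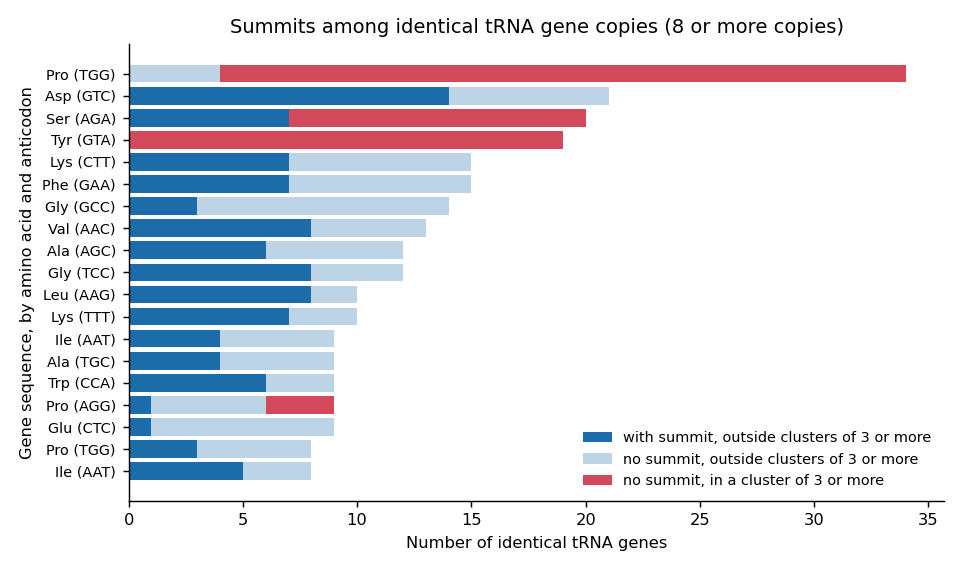
Number of identical tRNA genes (x axis) for each gene sequence with 8 or more copies (y axis, by amino acid and anticodon), divided into copies with a summit and copies without one outside clusters of 3 or more, and copies without one inside such clusters. The 7 single tRNA-Ser (AGA) copies all have a summit and the 13 copies in the largest cluster have none, while all 34 copies of the most frequent tRNA-Pro (TGG) sequence lack one.

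Among single genes, every one of the 20 amino acids had tRNA genes with a summit. The share was highest for tRNA-Trp (10 of 14, 71.4%, 45.4 to 88.3) and tRNA-Ser (24 of 35, 68.6%). It was lowest for tRNA-Glu (6 of 23, 26.1%), tRNA-Pro (7 of 25, 28.0%) and tRNA-Gly (13 of 41, 31.7%). The intervals of most amino acids overlapped. With clustered genes included, the share was 7 of 76 for tRNA-Tyr (9.21%) and 7 of 66 for tRNA-Pro (10.6%), against 36.8% and 28.0% for their single genes.

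Anticodons of 1 amino acid also differed in their counts. Single tRNA-Leu genes had a summit at 9 of 11 genes with anticodon AAG (81.8%, 52.3 to 94.9) and at 1 of 9 with anticodon TAG (11.1%, 1.99 to 43.5). For tRNA-Gly it was 8 of 12 genes with anticodon TCC (66.7%, 39.1 to 86.2) and 4 of 23 with anticodon GCC (17.4%, 6.98 to 37.1). Single tRNA-Ser genes had a summit at 9 of 10 genes with anticodon AGA, 8 of 11 with GCT and 4 of 9 with TGA. Single tRNA-Lys genes had one at 8 of 11 genes with anticodon TTT and 7 of 17 with CTT, and tRNA-Arg genes at 6 of 8 with CCT and 0 of 4 with CCG. For tRNA-Glu the counts were 4 of 10 with anticodon TTC and 2 of 13 with CTC. Genes annotated plainly as tRNA-Met had a summit at 8 of 11 and the initiator genes, which read the start codon, at 4 of 11, with overlapping intervals (43.4 to 90.3 and 15.2 to 64.6). An elongator reads internal methionine codons, and 1 gene, AT2G07755 (2:3328670-3328742), carried that label and had no summit. That gene lies in the stretch of chromosome 2 where no tRNA gene had a summit. The 11 plain tRNA-Met genes carry neither label, so the labels alone do not say whether these counts compare elongator with initiator genes. The median score was highest for the 10 tRNA-Trp summits (20.9, range 5.78 to 36.5) and the 24 tRNA-Ser summits (15.2, range 4.80 to 69.5). It was lowest for the 14 tRNA-Thr summits (7.16, range 4.10 to 12.7) and the 13 tRNA-Gly summits (7.35, range 2.33 to 33.8). The scores of single summits overlapped widely between amino acids.

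**Figure D3:**
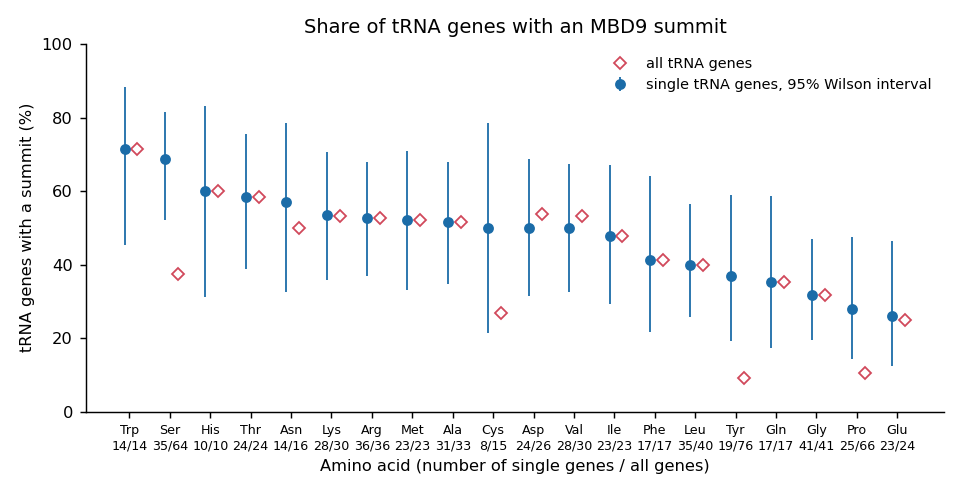
Share of tRNA genes with an MBD9 summit (y axis, %) by amino acid (x axis, with the numbers of single and of all genes). Filled circles with 95% Wilson intervals are single genes and open diamonds are all genes; the diamonds drop far below the circles for Ser, Cys, Tyr and Pro.

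**Figure D4:**
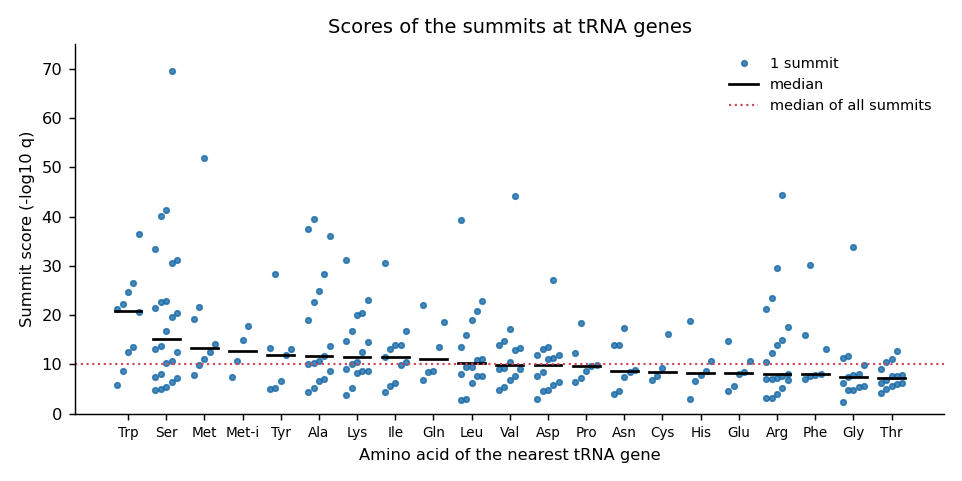
Score (y axis, -log10 q) of each of the 231 summits, by amino acid of the nearest tRNA gene (x axis, ordered by median; Met-i is the initiator), with medians as black bars and the median of all summits (10.1) as a dotted line. The medians run from 20.9 for Trp to 7.16 for Thr, and single points spread over wide and overlapping ranges.

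The 10 highest-scoring tRNA summits ranked from 331 to 1570 among all 13993. The highest, 69.5, lay 28 bp past the 3' end of the tRNA-Ser gene AT5G16375 (5:5358916-5358997). This tRNA gene is 127 bp upstream of AAE5, which encodes an acyl activating enzyme and lies on the opposite strand, and the summit was 236 bp from the nearest protein-coding 5' end. The next, 51.9, was inside the tRNA-Met gene AT1G11010, which overlaps the gene of a RING/FYVE/PHD zinc finger protein, AT1G11020. A score of 44.4 was found 6 bp past the tRNA-Arg gene AT2G42970, and one of 44.1 was 69 bp past the tRNA-Val gene AT1G12510. This last tRNA gene lies 13 bp past the end of CCS, which encodes the copper chaperone of superoxide dismutase. Of the tRNA-Ser genes, AT1G15650 (41.4) lies 44 bp upstream of CENP-C, the gene of a centromere protein, and AT5G51055 (40.1) lies 193 bp past APC2, which encodes a mitochondrial carrier. Both summits were inside the tRNA gene.

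The other 4 summits lay before the 5' end of their tRNA gene. They were at the tRNA-Ala gene AT4G11355 (39.5, 44 bp before it), the tRNA-Leu gene AT5G09975 (39.2, 77 bp), the tRNA-Ala gene AT5G08075 (37.4, 85 bp) and the tRNA-Trp gene AT4G17765 (36.5, 20 bp). AT4G11355 is upstream of RHA1B, a RING-H2 finger gene, and AT5G08075 is upstream of SYP132, which encodes a syntaxin, a protein of membrane fusion. Of these 10 summits 3 were therefore inside the tRNA gene, against 166 of all 231.

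The share of tRNA genes with a summit differed with the position of the neighbouring protein-coding gene. Of the single tRNA genes whose nearest protein-coding gene had its 5' end toward them within 1 kb, 119 of 197 had a summit (60.4%, 53.4 to 67.0). Past the 3' end of the nearest protein-coding gene it was 83 of 206 (40.3%, 33.8 to 47.1), a lower range that did not overlap the first. It was 12 of 43 where the genes overlapped (27.9%, 16.7 to 42.7) and 11 of 29 over 1 kb from any protein-coding gene (37.9%, 22.7 to 56.0). Over all tRNA genes, arrays included, the last share was 11 of 128 (8.59%), which includes the 81 genes of the largest cluster.

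The order held within most amino acids. The share was higher upstream than downstream of protein-coding genes in 15 amino acids, lower in 2 and equal in 2. The remaining amino acid, Cys, had no single gene upstream to compare. For tRNA-Ser it was 14 of 15 single genes upstream and 9 of 17 downstream, and for tRNA-Gly 4 of 10 upstream and 8 of 24 downstream. Upstream tRNA genes on the same strand as the protein-coding gene had a summit in 66.7% of cases (56.8 to 75.3) and those on the opposite strand in 54.5% (44.8 to 63.8), with overlapping intervals. Median scores over all tRNA summits were 11.0 upstream, 8.83 downstream, 13.0 where genes overlapped and 8.61 far from protein-coding genes.

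**Figure D5:**
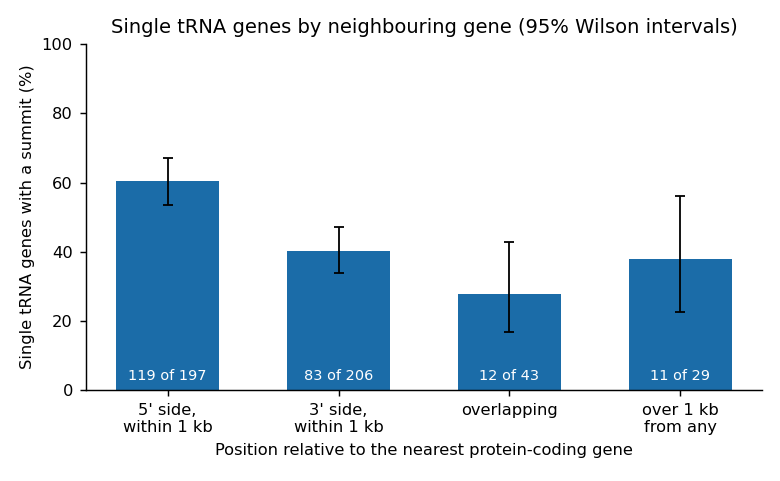
Share of single tRNA genes with a summit (y axis, %) by where the tRNA gene lies relative to the nearest protein-coding gene (x axis), with 95% Wilson intervals and counts. The share is 60.4% before the 5' end of a protein-coding gene and 27.9% to 40.3% in the other 3 positions.

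The rule admits only summits at or within 100 bp of a tRNA gene, which bounds where they can lie relative to protein-coding genes. Of the 121 summits at tRNA genes upstream of a protein-coding gene 92 were inside the tRNA gene (76.0%), and of the 29 in its flanks 19 were on the side of the protein-coding gene. The median distance from all tRNA summits to the nearest protein-coding 5' end was 238 bp. Within 100 bp of such an end were 45 summits, and 64 were over 1 kb from every one. In all, 161 of the 231 (69.7%) lay within 1 kb upstream of a protein-coding gene and 10 lay inside one. The same counts over all summits are not given here, so these have no background beside them.

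Seen from the protein-coding genes, 203 of the 342 that had a tRNA gene in the 1 kb upstream also had a summit there (59.4%, 54.1 to 64.4), against 4549 of the 27102 without one (16.8%, 16.3 to 17.2). When summits within 100 bp of a tRNA gene were left out, 32 of the 342 (9.36%, 6.71 to 12.9) and 4544 of the 27102 (16.8%) had one. The tRNA windows take up part of the 1 kb in the 342 genes, which reduces the room for other summits there.

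The elements of the RNA polymerase III promoter were about as frequent in single tRNA genes with a summit as in those without. An A box pattern was matched by 89.3% of the 225 genes with a summit and 90.4% of the 250 without. The B box GTTCGANNC was present in 79.6% and 74.4%, and with any base as the fifth letter, GTTCNANNC, in 91.6% and 92.8%. A CAA in the 15 bp before the gene was found in 77.3% and 77.6%, TATA in the 40 bp before it in 59.6% and 56.4%, and TTTT in the 25 bp past it in 94.7% and 88.8%. In the genome at large, windows of the same lengths matched the A box pattern in 0.412%, GTTCGANNC in 0.213%, GTTCNANNC in 1.19%, CAA in 27.2%, TATA in 21.0% and TTTT in 20.4%. The tRNA genes were searched on the strand of the gene and the genome windows on the plus strand, and a match is only a description of the letters.

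The T run showed the widest gap in counts: a summit was found at 213 of 435 single genes with TTTT (49%, 44.3 to 53.7) and at 12 of 40 without it (interval 18.1 to 45.4). These intervals overlapped. The single genes counted here include those in the stretch of chromosome 2 where no tRNA gene had a summit. How many of those genes lack TTTT is not given here, and their part in the gap was not tested. The median GC content was 57.5% in genes with a summit and 56.3% in those without, and 29.0% in the 5' flanks of both. Some tRNA genes carry a short intron that is spliced from the transcript. A summit was found at 15 of 27 single genes with an intron (55.6%, 37.3 to 72.4) and at 210 of 448 without one (46.9%, 42.3 to 51.5). The genes with an intron included plain tRNA-Met and tRNA-Tyr genes. Of all single genes of these kinds, 8 of 11 and 7 of 19 had a summit. The intron was not separated from the amino acid here. By chromosome, from 1 to 5, a summit was found at 51.6, 42.3, 42.0, 41.3 and 53.8% of single tRNA genes, so that no chromosome lacked them. The share for chromosome 2 includes the single genes of the stretch without summits.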

How the data were processed

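Anti-FLAG ChIP-seq reads of MBD9-3xFLAG and WT seedlings were aligned by the authors to TAIR10 without organelle genomes (Bowtie), unique reads were kept and duplicates were removed (SAMtools). The authors called peaks with MACS2 2.1.1, as the submitters' processing notes give it, at a q value cutoff of 0.01 with the WT library as control. The deposited score is -log10 of the q value at each summit, so it depends on depth and is no level of binding. Reads were extended to 200 bp, longer than a tRNA gene, which limits how exactly a summit marks a site.

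Positions were made 1-based and compared with RefSeq TAIR10.1 in Python 3.11.15 (NumPy 2.4.6). Each summit went to its nearest tRNA gene. Uniqueness was the share of 50-mers that occur once in the nuclear genome. The assignment was tested on simulated data. Wilson intervals are at 95%. No replicate exists, so no test was made. The named genes were those with the 10 highest-scoring summits, the largest clusters and identical copies. Members and lists were chosen with earlier results of these data known. GTTCNANNC, the A box pattern (loosened after a stricter one matched few genes), the 70% limit and the counts over single genes by neighbour and amino acid were chosen after seeing the data.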

Additional observations from a re-analysis of the deposited data

How the results depend on the processing

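The number of tRNA summits was 166 to 240 with windows of 0 to 200 bp and 212 with 1 summit per peak, and 120 with scores of at least 10. The share of tRNA genes with a summit was 26.6% counting only summits inside the gene, 19.5% with scores of at least 10, 8.59% over 1 kb from protein-coding genes and 43.5% with at least 70% unique words (added after the data were seen). The clustered share was 0% at 90% and 12.7% at 70% unique words (added), and the single share was 38.3% at 90%. Over all tRNA genes, single and clustered, the share upstream of protein-coding genes went from 58.4% to 47.5% at 90%. Downstream it went from 39.1% to 35%, so that the gap between upstream and downstream narrowed. The overlapping class went from 19.0% to 7.14% and the far class from 8.59% to 18.2%. Genes that were at least 90% unique had a summit in 34.3% with 50-mers and 25% with 36-mers. The cause of these shifts was not tested beyond the change in which genes or summits were counted. The genes that were at least 90% unique include some from 2:3255832-3503608, where no tRNA gene had a summit. No paired analysis was possible because there was 1 library per genotype. Depth is unknown, so tRNA genes without a summit may include weak sites.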

Other observations

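The same rule, a summit inside or within 100 bp, was applied to other small noncoding RNA genes. A summit was found at 2 of 287 snoRNA genes (0.697%, 0.191 to 2.50) and at 6 of 326 miRNA genes (1.84%, 0.846 to 3.96). RNA polymerase III transcribes U6 genes from an upstream promoter in plants. Of 14 annotated genes with a U6 name, 1 had a summit (7.14%, 1.27 to 31.5), with a score of 8.41 at U6.29. The names of 4 of the 14 end in p, with lengths of 24 to 86 bp, another is 912 bp long, and whether the 14 are intact was not tested. Of the other 68 snRNA genes 14 had a summit (20.6%, 12.7 to 31.6).

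Of the 625 nuclear tRNA genes, 5 were identical to a plastid or mitochondrial tRNA gene, all of them on chromosome 2, and 0 of the 5 had a summit (upper bound 43.4%). The reads were aligned without the organelle genomes, and the part of this in the count was not tested. Only identity over the whole gene was counted. Every tRNA gene from AT2G07743 to AT2G07766 on chromosome 2 (2:3255832-3503608) lacked a summit.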
